A study of Homo sapiens with 4 samples.

Results

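The genes described here encode the enzymes that build cholesterol and fatty acids and the proteins that control them. They are 38 named genes, taken by their symbol in the annotation of the array. Of these, 36 had a probe, and 35 had at least 1 probe detected on at least 1 array, which means that under 1% of the negative control beads were as bright (detection p under 0.01). The 35 genes carried 44 of the 18200 probes tested on the array, where 10921 named genes were tested in all. STARD4, a carrier of sterols through the cytosol, had a single probe that was not detected on any of the 4 arrays, and FDFT1 and ACSL3 had no probe under their names.

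RNA came from A549 cells, a human lung adenocarcinoma line kept in medium with fetal bovine serum, at the same siRNA dose of 50 nM in every group. The control group was a single array, of cells that received an siRNA without a target. The siEPEL group was 3 arrays, each after a different siRNA against EPEL, a long noncoding RNA, here named siRNA 1, siRNA 2 and siRNA 3. Medium was renewed 4 h after transfection, and the knockdown is stated for 48 h after it. Nothing in the labels says that the 4 samples came from separate cultures. The p-values rest on the spread between the 3 siEPEL samples, differences between the siRNAs included, as the single control array shows no spread.

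Between 16520 and 17106 of the 47228 probes were detected on each array, and the mean raw signal lay between 381 and 404. The annotation used here names no probe for EPEL, so the depth of its knockdown was not analysed here. Of the 11 epithelial and A549 marker genes, 10 had a probe and 9 were detected on all 4 arrays, among them KRT8, CDH1, ALDH1A1 and AKR1B10. The exception was AKR1C1, which was not detected on any array. Summed over these markers, the raw signal was 78596 in control cells and 76633, 71135 and 71850 under siRNAs 1, 2 and 3. Most of this sum came from AKR1B10, AKR1C3, ALDH1A1 and ALDH3A1. With siRNA 2 the raw signal of every detected marker but AKR1C3 was below the control. KRT8 had 7394.4 in control cells and 4563.5 with siRNA 2, KRT18 423.3 and 312.9, and CDH1 1561.5 and 1135.0. Of the markers listed for other cell types, PTPRC and CD3E (leukocytes) and PECAM1, CDH5 and VWF (endothelium) were not detected on any of the 4 arrays. The same held for ADIPOQ and PLIN1 (adipocytes), APOA2, CYP3A4 and CYP2E1 (hepatocytes) and DCN and PDGFRB (fibroblasts). The other markers listed for these cell types, COL1A1, COL3A1, CD14, CD68 and LEP, were detected on at least 2 arrays. From control to siRNA 3, the summed raw signal of the 4 leukocyte markers was 968, 1065, 1170 and 1274, higher with all 3 siRNAs, of which CD68 held 489.2, 622.1, 639.7 and 670.0. For the 4 fibroblast markers the sums were 310, 334, 338 and 300, and for the 3 adipocyte markers 256, 236, 283 and 272. COL1A1 was detected with siRNAs 1 and 2 only, and so was tested only because of siEPEL arrays. From control to siRNA 3 its raw signal was 82.8, 98.2, 118.7 and 83.0. COL3A1 was dim on every array, at 95.5, 99.0, 97.3 and 100.5. After normalization both lay above the control with all 3 siRNAs, as did 20.5% of all genes tested. Of the 2 tested leukocyte markers CD68 did. The median log2 fold change of these leukocyte markers was 0.36. None of these markers passed the limma test, and their part in the results below was not tested.

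Sterol regulatory element binding proteins (SREBPs) are transcription factors made as precursors in the membrane of the endoplasmic reticulum. SCAP senses cholesterol and escorts them to the Golgi when sterols are low, and INSIG proteins hold SCAP back when sterols are high. In the Golgi the precursor is cut, and its released part enters the nucleus and binds sterol regulatory elements near genes of lipid synthesis, beside NF-Y at CCAAT boxes and SP1 at GC boxes. The SREBF2 product is known mainly for cholesterol genes and the SREBF1 products mainly for fatty acid genes. This control acts largely on the cut of the precursor, which an array of transcripts does not measure.

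Promoters of 34 of the 38 genes were found in a RefSeq table (GRCh38.p14, 250 bases before to 50 after each start). Short windows are shown because they hold the letters of the regulatory motifs searched here. The sterol regulatory element was searched as TCACCCCAC and, with 1 free base, as TCACNCCAC, which includes the former. The other motifs were the CCAAT box (CCAAT), the E-box (CACGTG) and the GC box (GGGCGG), each on both strands. Windows are written 5′ to 3′ on the strand of the gene, all before the start, with the motif in capitals. In the ACSL1, IDI1 and EBP windows it lies on the opposite strand.
SREBF2, chr22:41832952-41833000, plus strand, sterol regulatory element: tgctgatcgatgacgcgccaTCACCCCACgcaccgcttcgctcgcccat
ACSL1, chr4:184805767-184805803, minus strand, sterol regulatory element: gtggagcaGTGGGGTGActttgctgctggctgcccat
INSIG1, chr7:155297803-155297848, plus strand, E-box: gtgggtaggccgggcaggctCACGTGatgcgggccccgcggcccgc
IDI1, chr10:1048949-1048993, minus strand, CCAAT box: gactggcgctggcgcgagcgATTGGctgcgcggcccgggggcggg
EBP, chrX:48521718-48521762, plus strand, CCAAT box: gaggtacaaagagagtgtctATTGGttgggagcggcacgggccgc

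The letters TCACCCCAC stood in the promoters of SREBF2 and ACSL1, 2 of 34 genes or 5.88%, against 0.535% of all 27305 genes of the table. The form with 1 free base added no further gene among the 34, and was held by 1.39% of all genes. A CCAAT box was found for 25 of the 34 genes (73.5%, against 39.7% of all genes and 42.1% of protein-coding genes). For the GC box these shares were 94.1%, 48.3% and 64.3%, and for the E-box 14.7%, 8.77% and 10.9%. A match describes the letters in these windows and does not mark a bound site.

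No gene of the pathway was called different in siEPEL cells. In the limma fit over all 18200 probes, 0 of the 35 genes passed an adjusted p of 0.05, and their adjusted p was 1.00. The background was the same, with 0% of all probes called, and by unadjusted p under 0.05 there were 0 of the 35 genes and 382 of all probes (2.1%). By the brightest tested probe of each gene, the largest mean differences were those of CYP51A1, at a log2 fold change of 0.32 ± 0.21 (SE), and EBP, at -0.33 ± 0.22. All 35 intervals of 95% held 0, and together they reached from -0.84 to 0.85 on the log2 scale, so that a 2-fold difference lay outside the interval of each of the 34 genes detected on all 4 arrays. These intervals assume that the lone control array varies as the siEPEL arrays do. In such bulk samples, fewer cells of a type and less RNA per cell cannot be told apart.

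**Figure D1:**
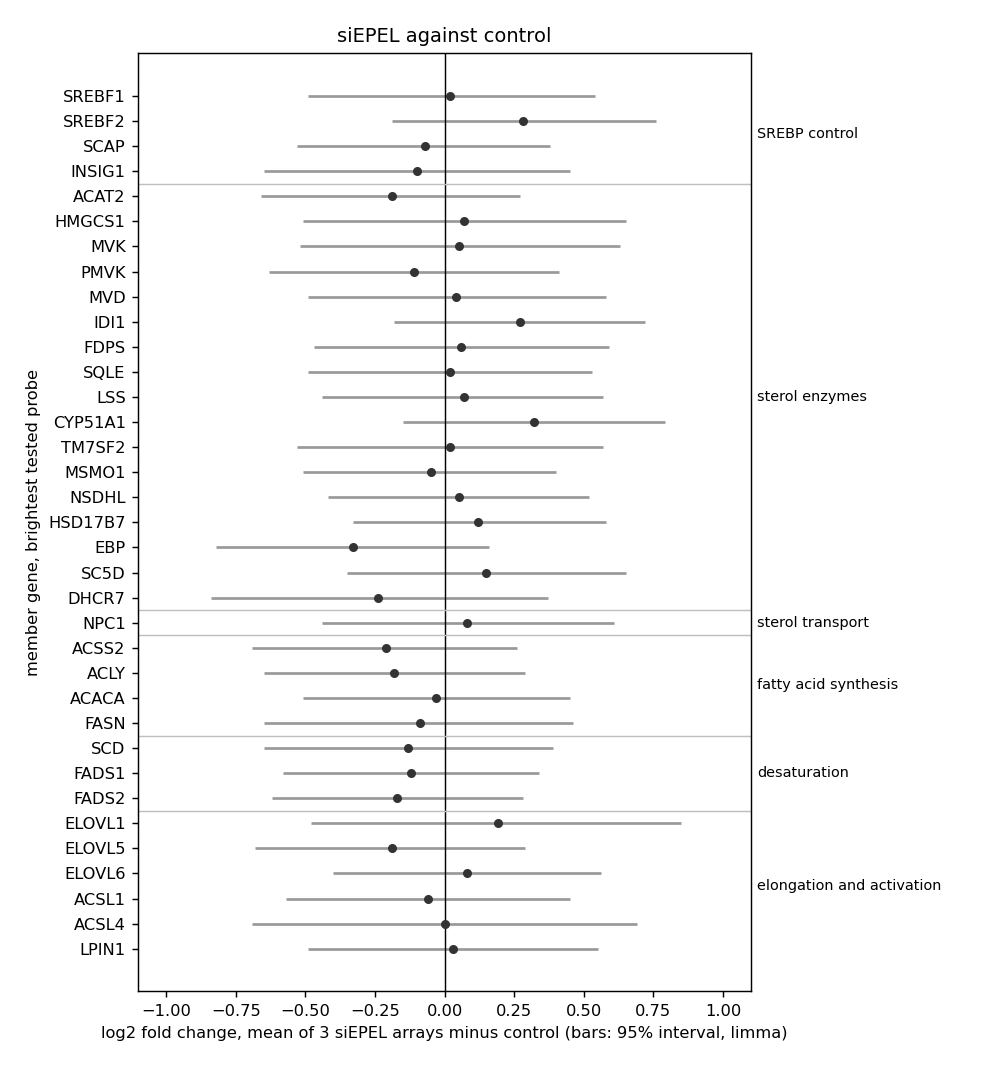
Log2 fold change of each gene, taken by its brightest tested probe, as the mean of the 3 siEPEL arrays minus the control array, with the 95% interval of the limma fit. Every interval crosses 0, with EBP lowest at -0.33 and CYP51A1 highest at 0.32, while the plotted value of SREBF2, undetected in control cells, is no fold.

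Values below are normalized log2 levels of the brightest probe of each gene, or log2 ratios of 1 siEPEL array to the control array. The 3 ratios of a gene share that control array, so a deviation of the control would move all of them together. Above the control with all 3 siRNAs were 4 genes (11.4%, against 20.5% of all genes tested) and below it were 10 (28.6%, against 20.3% of all genes). SREBF2, among the former, was undetected in control cells, which leaves 3 of 34 genes, and with median scaling of the arrays the latter were 8. The other 21 lay on both sides of the control. The spread between the siRNAs was close to that of other genes, with a median SD of 0.19 log2 units over the 35 genes and 0.17 over all genes. The median absolute log2 fold change was 0.09 for the pathway and 0.12 for all genes.

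Of the 4 genes of SREBP control all were tested and 0 were called, and they did not lie on one side of the control. SREBF1, which encodes the SREBP of fatty acid genes, had a log2 level of 9.89 in control cells and of 9.89, 9.72 and 10.12 under siRNAs 1, 2 and 3. The control value lay inside the range of the siEPEL arrays, with siRNA 2 below and siRNA 3 above it. A second SREBF1 probe kept that order, at ratios of 0.02, -0.30 and 0.21.

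SCAP, the sterol-sensing escort, was the steadiest of the 4. Its log2 level was 10.94 in control cells and 10.86, 10.91 and 10.83 under siRNAs 1, 2 and 3. All 3 siEPEL arrays were below the control, by at most 0.11 log2 units. INSIG1, the retention protein and itself a known SREBP target, had log2 levels of 8.66, 8.29, 8.80 and 8.58 in the same order. It was lowest with siRNA 1 (ratio -0.37) and above the control with siRNA 2 (0.14), so the groups overlapped, and a second INSIG1 probe was not detected on any array.

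SREBF2, which encodes the SREBP of cholesterol genes, had a single probe, which lay at the limit of detection. Its raw bead signal was 79.1 in control cells and 88.8, 81.3 and 87.2 under siRNAs 1, 2 and 3. It was detected with siRNA 1 and siRNA 3, but not with siRNA 2 or in control cells. It was therefore tested only because of siEPEL arrays, and no fold above 1 could be given against the dimmest detected signal of the control array. SREBF1 and INSIG1 each had an undetected probe beside a detected one. A dim probe alone thus does not give the amount of SREBF2 transcript.

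**Figure D2:**
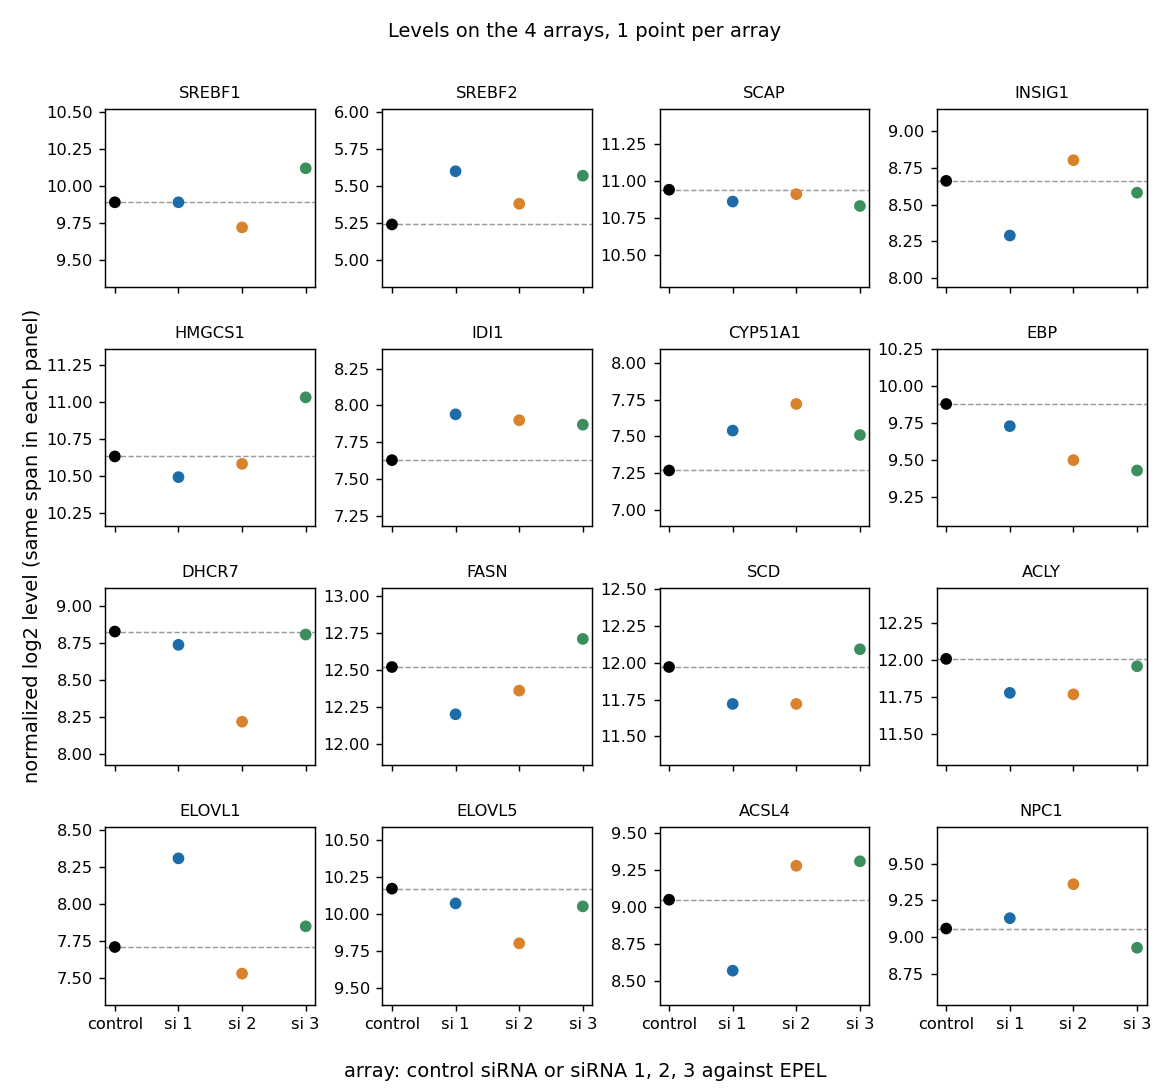
Normalized log2 levels of 16 genes on the control array (black, dashed line) and with siRNA 1 (blue), siRNA 2 (orange) and siRNA 3 (green), 1 point per array, every panel with the same span. IDI1 and CYP51A1 lie above the control on every siEPEL array and EBP below it, while HMGCS1, FASN and ACSL4 lie on both sides.

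Enzymes of sterol synthesis did not all lie on one side of the control. Of the 18 listed, 17 were tested and 0 were called. Their median log2 fold change was 0.05, against -0.01 over all genes tested, and their median ratios were 0.12, -0.04 and 0.00 with siRNAs 1, 2 and 3. The mean lay above the control for 12 of the 17 and below it for 5. Among all 10921 genes tested it lay above the control for 5328. Above the control with all 3 siRNAs were IDI1, CYP51A1 and HSD17B7, and below it ACAT2, MSMO1, EBP and DHCR7.

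The first steps join acetyl-CoA units into mevalonate. ACAT2, the cytosolic thiolase of the first condensation, had a log2 level of 9.94 in control cells and of 9.83, 9.66 and 9.74 under siRNAs 1, 2 and 3. The fitted log2 fold change was -0.19 ± 0.20 (SE). Its siEPEL arrays were all below the control, by at most 0.28 log2 units. HMGCS1, which adds the next acetyl unit to form HMG-CoA, had log2 levels of 10.63, 10.49, 10.58 and 11.03 in the same order. It stood at 1.33-fold the control under siRNA 3 and just below the control under siRNAs 1 and 2, so the groups overlapped.

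The 3 enzymes that phosphorylate and decarboxylate mevalonate had their lowest ratio with siRNA 3. Mevalonate kinase, MVK, had ratios of 0.22, 0.22 and -0.28 with siRNAs 1, 2 and 3. Phosphomevalonate kinase, PMVK, had ratios of 0.06, -0.05 and -0.34. The decarboxylase MVD had ratios of 0.26, 0.07 and -0.20. For each of them the control lay within the range of the siEPEL arrays, and MVK and MVD were dim, with log2 levels between 5.53 and 6.44.

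IDI1, the isomerase that yields both isoprene building blocks, had the smallest gap between siRNAs of the tested sterol enzymes. Its log2 level was 7.63 in control cells and 7.94, 7.90 and 7.87 under siRNAs 1, 2 and 3, and its ratios 0.31, 0.27 and 0.24. The groups did not overlap, and the siEPEL arrays differed among themselves by 0.08 log2 units. The fitted log2 fold change was 0.27 ± 0.20 (SE, limma), with an unadjusted p of 0.204 and an adjusted p of 1.00. The fit shares its estimate of the spread across all probes, so its SE is far wider than the spread of these 3 arrays alone.

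Downstream of IDI1, FDPS, which makes farnesyl diphosphate, had ratios of -0.18, 0.10 and 0.26 with siRNAs 1, 2 and 3. SQLE, the epoxidase that commits squalene to sterols, ran in the same order, at -0.18, 0.03 and 0.21, and its second probe at -0.05, -0.16 and 0.00. Both genes were lowest with siRNA 1 and highest with siRNA 3 by the brightest probe, as HMGCS1 was. LSS, which closes the rings to lanosterol, had ratios of 0.28, -0.06 and -0.02.

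CYP51A1, the demethylase acting on lanosterol, had the highest mean log2 fold change of the 35 genes, without passing the test. Its log2 level was 7.27 in control cells and 7.54, 7.72 and 7.51 under siRNAs 1, 2 and 3. All 3 siEPEL arrays were above the control, at 1.21-fold, 1.37-fold and 1.18-fold. The log2 fold change had a 95% interval of -0.15 to 0.79 and an unadjusted p of 0.155. TM7SF2, the sterol reductase of the following step, had ratios of 0.28, -0.24 and 0.02, on both sides of the control.

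MSMO1, NSDHL and HSD17B7 remove the methyl groups of the sterol ring. The oxidase MSMO1 had a log2 level of 9.24 in control cells and of 9.12, 9.21 and 9.24 under siRNAs 1, 2 and 3 by its brightest probe, a shift of at most 0.12. Its 2 other probes gave log2 fold changes of -0.07 ± 0.20 (SE) and -0.45 ± 0.22, the latter with ratios of -0.28, -0.64 and -0.42 and an unadjusted p of 0.0731. All 3 probes thus lay below the control or level with it, but by amounts that differed up to 0.60 with siRNA 2. NSDHL had ratios of 0.13, -0.08 and 0.09. HSD17B7 had log2 levels of 9.46, 9.58, 9.66 and 9.52 from control to siRNA 3, all siEPEL arrays above the control by at most 0.20.

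The last steps gave the 2 lowest mean log2 fold changes of the 35 genes by their brightest probes. A dimmer probe of MSMO1 was lower, at -0.45. EBP, the isomerase that shifts the double bond of the ring, had a log2 level of 9.88 in control cells and of 9.73, 9.50 and 9.43 under siRNAs 1, 2 and 3. All siEPEL arrays were below the control, at 0.898-fold, 0.765-fold and 0.732-fold. Its 95% interval ran from -0.82 to 0.16, with an unadjusted p of 0.16. The desaturase SC5D lay on both sides, with ratios of 0.30, 0.20 and -0.05.

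DHCR7, the reductase that completes cholesterol, was low with 1 siRNA. Its log2 level was 8.83 in control cells and 8.74, 8.22 and 8.81 under siRNAs 1, 2 and 3. With siRNA 2 it was 0.655-fold the control, while siRNAs 1 and 3 differed from the control by less than 0.10. A second probe had the same order, with ratios of -0.18, -0.46 and -0.11. Its log2 fold change of -0.24 ± 0.27 (SE) was -0.05 without siRNA 2.

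**Figure D3:**
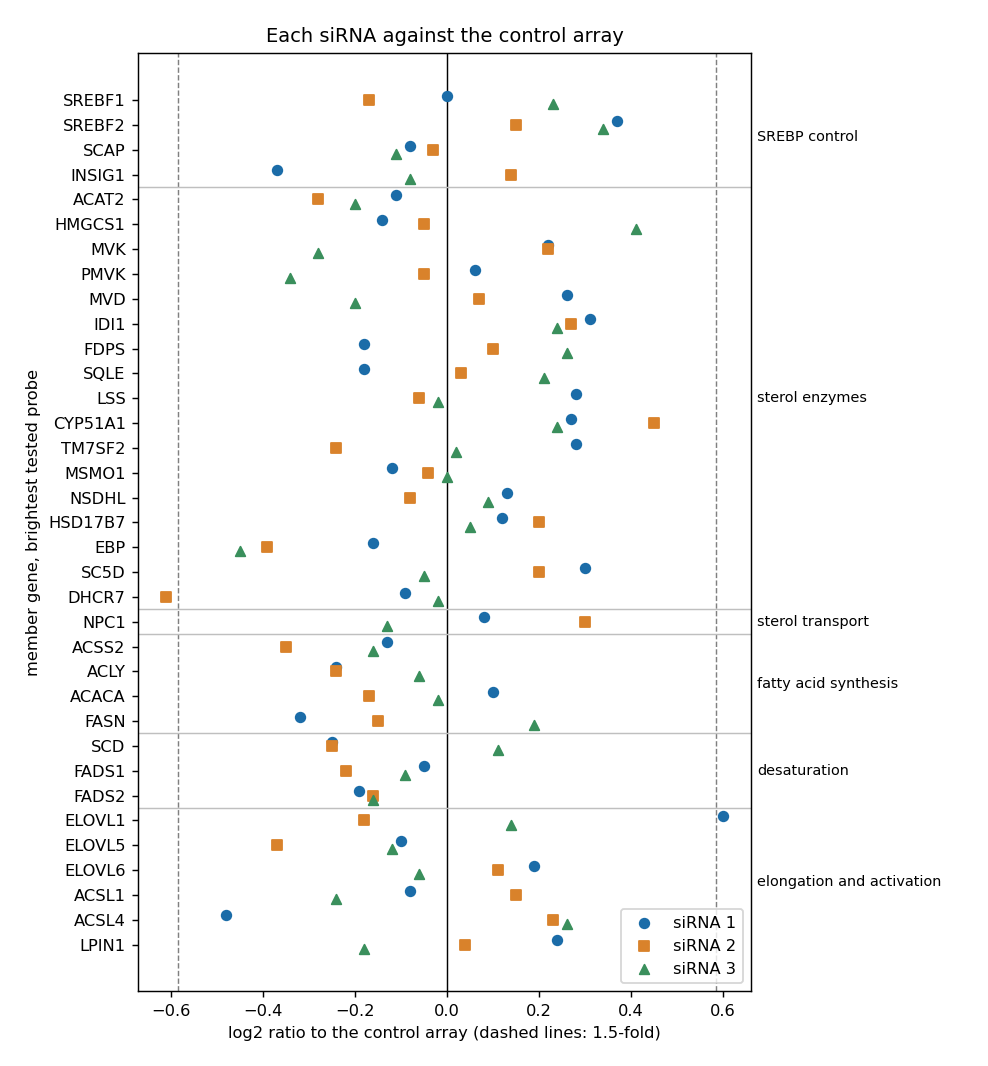
Log2 ratio of each siEPEL array to the control array for the 35 genes in pathway order, with siRNA 1 as blue circles, siRNA 2 as orange squares and siRNA 3 as green triangles, offset vertically for sight. Dashed lines mark 1.5-fold, which ELOVL1 passes with siRNA 1 and DHCR7 with siRNA 2.

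Cholesterol leaving the lysosome was represented by NPC1, the membrane protein of lysosomal sterol export. NPC1 had a log2 level of 9.06 in control cells and of 9.13, 9.36 and 8.93 under siRNAs 1, 2 and 3. The control lay within the range of the siEPEL arrays. Its log2 fold change was 0.08 ± 0.23 (SE), or -0.03 without siRNA 2.

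The 4 enzymes that supply acetyl-CoA in the cytosol and build palmitate from it all had mean levels below the control, and 0 were called. Their median log2 fold change was -0.14, against -0.01 over all genes, and their median ratios were -0.18, -0.21 and -0.04 with siRNAs 1, 2 and 3. Leaving out siRNA 1, 2 or 3 gave medians of -0.12, -0.10 and -0.24. The mean of FASN was 0.02 without siRNA 1, and that of ACACA was 0.04 without siRNA 2. Of all 10921 genes tested, 5593 had a mean below the control. ACSS2 and ACLY were below the control on all 3 siEPEL arrays, ACACA and FASN on 2.

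ACSS2, which activates acetate, had a log2 level of 9.43 in control cells and of 9.30, 9.07 and 9.27 under siRNAs 1, 2 and 3. Its second tested probe had ratios within 0.03 of the brightest one, and both were lowest with siRNA 2. ACLY, which cleaves citrate to acetyl-CoA in the cytosol, had log2 levels of 12.01, 11.78, 11.77 and 11.96 in the same order. At ratios of -0.24, -0.24 and -0.06 it was nearest the control under siRNA 3, where its second probe lay just above the control (0.05).

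ACACA, the carboxylase that makes malonyl-CoA and sets the pace of fatty acid synthesis, had a log2 level of 10.37 in control cells and of 10.47, 10.21 and 10.36 under siRNAs 1, 2 and 3. Its mean lay near the control, with a log2 fold change of -0.03 ± 0.21 (SE), and -0.11 ± 0.21 by its second probe. FASN, the synthase of palmitate, had log2 levels of 12.52, 12.20, 12.36 and 12.71 in the same order. It stood at 0.802-fold the control under siRNA 1 and at 1.14-fold under siRNA 3, a gap of 0.51 log2 units between siRNAs around a mean difference of -0.09 ± 0.24.

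Desaturases put double bonds into the finished chains. All 3 had mean levels below the control, with a median log2 fold change of -0.13 and 0 called. A mean below the control was held by 5593 of all 10921 genes tested. SCD, which makes oleate from stearate and is a known target of SREBPs, had a log2 level of 11.97 in control cells and of 11.72, 11.72 and 12.09 under siRNAs 1, 2 and 3. Like FASN it was below the control with siRNAs 1 and 2 and above it with siRNA 3. FADS1, a desaturase of polyunsaturated chains, had log2 levels of 10.04, 9.99, 9.82 and 9.95. FADS2, which acts before FADS1, had 5.89, 5.71, 5.74 and 5.73, near the dimmest detected log2 level of 5.51 to 5.62. Both were below the control with all 3 siRNAs, by at most 0.22, and for FADS2 the siEPEL arrays differed by 0.03.

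Elongases and activating enzymes held the genes that differed most between siRNAs. Of 7 listed genes 6 were tested and 0 called, with a median log2 fold change of 0.02. ELOVL1, which extends very long saturated chains, had a log2 level of 7.71 in control cells and of 8.31, 7.53 and 7.85 under siRNAs 1, 2 and 3. It stood at 1.52-fold the control under siRNA 1 and at 0.883-fold under siRNA 2, the widest gap of the 35 genes at 0.78 log2 units.

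ELOVL5, an elongase of polyunsaturated chains, had a log2 level of 10.17 in control cells and of 10.07, 9.80 and 10.05 under siRNAs 1, 2 and 3. All siEPEL arrays were below the control, siRNA 2 the furthest at 0.774-fold. ELOVL6, which extends palmitate to stearate, had ratios of 0.19, 0.11 and -0.06 by its brightest probe, but 0.01, -0.37 and -0.26 by its other one. The probes of ELOVL6 therefore differed in the sign of the mean, at 0.08 ± 0.21 (SE) and -0.21 ± 0.23.

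ACSL4, an acyl-CoA synthetase known to favour arachidonate, had a log2 level of 9.05 in control cells and of 8.57, 9.28 and 9.31 under siRNAs 1, 2 and 3. Its ratios were -0.48, 0.23 and 0.26, with siRNA 1 below the control and the other siRNAs above it, so that its mean difference was 0.00 ± 0.30 (SE). ACSL1, another acyl-CoA synthetase, had ratios of -0.08, 0.15 and -0.24. LPIN1, a phosphatidate phosphatase on the way to triglycerides, had ratios of 0.24, 0.04 and -0.18.

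Single arrays were also read against the control at a fold of 1.5. Under siRNA 1, ELOVL1 alone of the 35 genes was that far above the control, against 1.9% of all genes, and 0 were that far below, against 3.22%. Under siRNA 2, DHCR7 alone was that far below, against 3.26% of all genes, and 0 were that far above, against 2.48%. Under siRNA 3 the pathway had 0 genes in either direction, against 0.961% of all genes above and 1.21% below. These single arrays have no replicate, so no test stands behind the counts, and without background correction both were 0.

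The middle 90% of all genes spanned ratios from -0.50 to 0.44 with siRNA 1, -0.50 to 0.47 with siRNA 2 and -0.38 to 0.37 with siRNA 3. Outside it were ELOVL1 with siRNA 1, DHCR7 with siRNA 2, and EBP (below) and HMGCS1 (above) with siRNA 3. The remaining ratios of the 35 genes lay inside. Among the 3 siRNAs, siRNA 1 gave the highest ratio in 17 of the 35 genes (48.6%, against 34.5% of all genes). For siRNA 2 this count was 8 (22.9%, against 35%) and for siRNA 3 it was 10 (28.6%, against 30.3%). The lowest ratio was that of siRNA 1 in 8 genes (22.9%, against 35.4%). It was that of siRNA 2 in 13 (37.1%, against 33.1%) and of siRNA 3 in 13 (37.1%, against 31.4%).

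**Figure D4:**
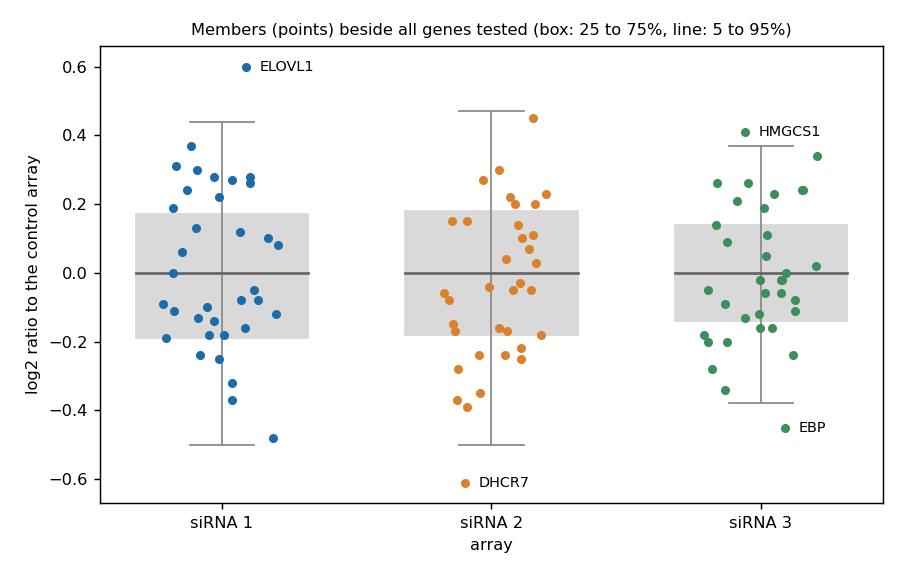
Log2 ratio to the control array of the 35 genes (points, spread sideways for sight) beside all 10921 genes tested, whose 25 to 75% range is the grey box and 5 to 95% range the grey line. Named points lie outside the grey line: ELOVL1 at 0.60, DHCR7 at -0.61, HMGCS1 at 0.41 and EBP at -0.45.

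Several tested probes were held by 8 of the genes, which gives 9 pairs of the brightest with another probe and 27 pairs of ratios. In 23 of the 27 both probes had ratios of one sign. The median gap was 0.10 log2 units, and the 3 gaps above 0.40 were those of MSMO1 with siRNAs 2 and 3 and of ELOVL6 with siRNA 2. For SREBF1, SQLE and ELOVL6 the probes differed in the sign of the mean log2 fold change. RefSeq lists pseudogenes under the names of IDI1, FDPS, CYP51A1, HSD17B7 and SCD, and whether their transcripts reach these probes was not tested.

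**Figure D5:**
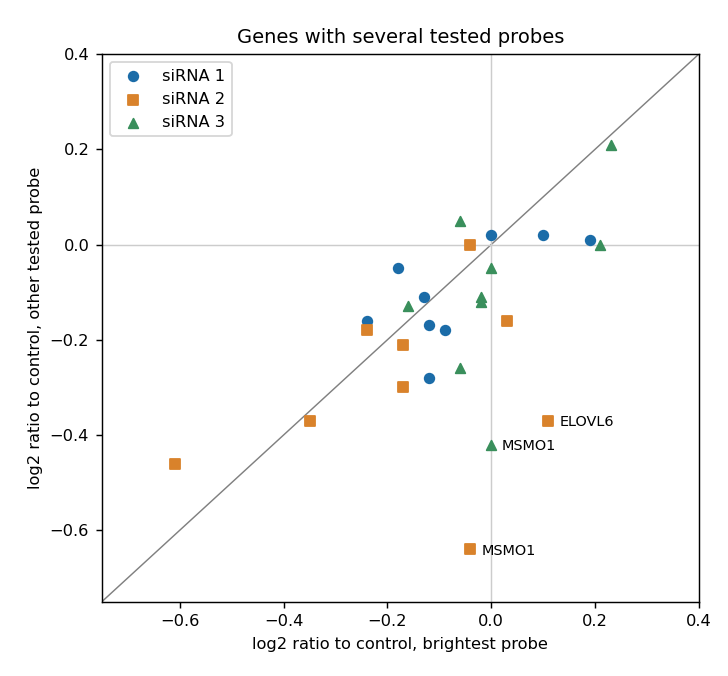
Log2 ratio to the control by the brightest probe (horizontal) and by another tested probe of the same gene (vertical) for 8 genes, 1 point per siRNA and pair, with the line of equality. Most points lie near the line, and the named ones, MSMO1 and ELOVL6, lie 0.42 to 0.60 below it.

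Of 56 further genes of sterol and fatty acid metabolism, chosen with the 38, 45 were tested and 0 were called, with a median log2 fold change of 0.01. With all 3 siRNAs, 9 were above the control and 7 below it, against the 20.5% and 20.3% of all genes given above. The genes named first lay on one side with all 3 siRNAs, and their smallest ratios were the largest in size. GPAM, the acyltransferase that starts glycerolipid synthesis, had a log2 level of 8.27 in control cells and of 7.94, 7.95 and 8.07 under siRNAs 1, 2 and 3. Its siEPEL arrays were 0.794-fold, 0.797-fold and 0.868-fold the control, with a log2 fold change of -0.29 ± 0.20 (SE).

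Also lower with all 3 siRNAs were ACBD3, a Golgi protein, at -0.20 ± 0.20 (SE), and PAQR3, which tethers SCAP and SREBP at the Golgi, at -0.15 ± 0.20. Higher with all 3 were MYLIP, a ubiquitin ligase induced by sterol-sensing liver X receptors, at 0.26 ± 0.21, and ABCA1, a cholesterol exporter known to be induced by the same receptors, at 0.19 ± 0.21. MID1IP1, which promotes the assembly of active ACACA, was at 0.18 ± 0.20. None of the 6 passed the limma test, at an adjusted p of 1.00 each. From the same list, ABCG1 and NR1H3 lay on both sides of the control, at -0.16 ± 0.27 (SE) and -0.02 ± 0.23. Whether liver X receptors were active was not tested.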

How the data were processed

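The deposited intensities of the Illumina HumanHT-12 BeadChips are linear mean signals of a probe's beads, neither background-subtracted nor normalized. Per the submitters' processing notes BeadStudio was used, in a version they do not give. A detection p-value accompanies every deposited intensity, per the headers. A second deposited table gives intensities that the authors had processed, for these arrays too. It is linear and background-subtracted, with nearly equal sorted values on the 4 arrays, by a method not given in the sources used here, and served as an alternative.

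Raw intensities were corrected from the detection p-values, quantile-normalized, offset by 16 and log2-transformed with neqc of limma 3.58.1 (R 4.3.3). The offset understates fold changes of dim probes. Probes detected on any array (detection p under 0.01) were fitted by lmFit and eBayes, siEPEL against control, with 2-sided p-values adjusted by Benjamini-Hochberg across the 18200 probes. Residual degrees of freedom numbered 2, all from siEPEL arrays, and the prior added 6.83. The fit was tested on simulated data. With 4 arrays, their number limits the precision, and the median SE of a log2 fold change was 0.22.

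Names came from the platform annotation, updated through RefSeq by gene identifier, which changed 0 symbols. A gene is shown by its brightest tested probe. All 35 measured genes are named, with levels on every array for those on one side of the control with all 3 siRNAs, for SREBP control, and for the 2 of each role with the widest gap between siRNAs. Of the other pathway genes, the 6 with the largest smallest ratio on one side are named. Genes, lists and tests were chosen with earlier results of these data known.

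As alternatives, an offset of 50, cyclic loess, scaling by the median, uncorrected background or the authors' processed values replaced the normalization. Others were stricter and looser detection filters, a variance trend on intensity, alone or with robust estimation, a gene's mean over its probes, a fold of 2, and leaving out each siRNA.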

Additional observations from a re-analysis of the deposited data

How the results depend on the processing

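Under the alternatives run, 0 probes and 0 genes of the pathway passed an adjusted p of 0.05 with limma. The median log2 fold change of all 35 genes, 0.02, was 0.00 with median scaling or cyclic loess and -0.02 with the mean of a gene's probes, and leaving out 1 siRNA gave -0.04 to -0.03. That of fatty acid synthesis ran from -0.24 (without siRNA 3) to -0.10 (without siRNA 2). The count past 1.5-fold with siRNA 1, 1 gene, was 0 at a fold of 2, without background correction, with median scaling or with an offset of 50, and 2 with the authors' processed values. With siRNA 2 it was 0 in place of 1 at a fold of 2, without background correction, with an offset of 50 or with the mean of a gene's probes. The signs of 17 of the 35 mean differences held under every alternative, and the other 18, at most 0.19 in size, changed under at least 1. Of the 14 genes on one side with all 3 siRNAs, 12 remained so with median scaling, all but MSMO1 and DHCR7, and SREBF2 was not tested when detection on all 4 arrays was asked. For SREBF1, SQLE and ACSL4 median scaling turned the sign of the mean. No paired analysis was possible because the control group has 1 array, so the groups cannot share more than 1 replicate number. Signal near background limits SREBF2, MVK, MVD and FADS2.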
